A study of Mus musculus with 6 samples.

Results

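Cells sorted as CD45+ from the midbrains of Line 61 mice were searched for migratory dendritic cells, which were proposed as cells rich in MHC Class II transcripts that carry Ccr7, Ccl22, Ccl17 and Fscn1. A cell was taken as a member when H2-Aa, H2-Ab1, H2-Eb1 and Cd74 together made up at least 1% of its unique molecular identifiers (UMIs, each a count of 1 captured RNA molecule), when it held 3 or more UMIs summed over Ccr7, Ccl22, Ccl17 and Fscn1, and when it held at most 1 UMI summed over the macrophage genes Mrc1, Pf4, Cd163, Cbr2 and Lyve1. The rule selected 67 of the 77105 cells that passed the filters. Measured values thus chose the members, so their high counts of the 4 genes are a description and not a finding. The data went against the proposed name for most of the members. Of the 67 cells, 29 (43.3%) carried B cell transcripts, 27 (40.3%) carried microglial (MG) transcripts, 3 (4.48%) carried both, and 8 (11.9%) carried few of either. All 4 genes of the rule were detected together in 2 cells. The 67 cells are therefore called here the cells selected by the rule, or members, and not dendritic cells.

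The 4 expression libraries, 1 per condition, were made from male Line 61 mice that were 12 to 15 weeks old at injection. All mice carried the Line 61 transgene, in which the Thy1 promoter drives full-length wild-type human α-Syn in neurons, so the controls carried it too. Mice received injections into both striata of PBS, of monomeric human α-Syn, or of sonicated human α-Syn preformed fibrils (PFF). From 2 weeks after PFF injection, vehicle (VH, DMSO) or the JAK1/JAK2 inhibitor AZD1480 at 25 mg/kg was given daily by oral gavage for 4 weeks, and all midbrains were collected at 6 weeks. Each sample pooled 3 to 5 ventral midbrains, with 3 samples each for PBS and monomer, and 4 and 5 samples after PFF with VH and with AZD1480. The PFF + VH library held 4 antibody hashtags and the PFF + AZD1480 library held 5. Each hashtag was taken as 1 replicate because these numbers equal the numbers of samples, although this is not spelled out in the sources used here. The PBS and monomer libraries held no hashtags, and everywhere the library and its condition cannot be told apart.

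Filtering kept 14617, 15031, 34436 and 13021 cells of PBS, monomer, PFF + VH and PFF + AZD1480. The median depth was 2306 UMIs per cell in PFF + VH and between 6616 and 7028 in the other 3 libraries, and the rule counts UMIs, so shares are compared after thinning to 1 depth. Pairs of libraries shared 45 to 151 cell barcodes, at most 1.03% of the smaller library, and the barcode of 1 member also occurred in another library.

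Migratory dendritic cells are antigen-presenting cells that have taken up antigen in a tissue, matured, and left for the draining lymph node. Maturation lowers uptake receptors and raises MHC Class II, costimulatory ligands and noncanonical NF-κB signalling, while the chemokine receptor CCR7 guides the cell along CCL19 and CCL21 into lymphatic vessels. In the brain such cells are rare and are known mostly from the meninges, choroid plexus and vessels. CCR7 is also used by naive B and T cells to enter lymph nodes, and B cells express MHC Class II, so neither is particular to dendritic cells.

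Of the 4 genes of the rule, Ccr7 (ENSMUSG00000037944) encodes that receptor and lies at chr11:99144196-99155077 on the minus strand of mm10 (GENCODE vM21). Ccl22 (ENSMUSG00000031779, chr8:94745590-94751699, plus strand) and Ccl17 (ENSMUSG00000031780, chr8:94810453-94812036, plus strand) encode chemokines that bind CCR4 on T cells, and the 2 genes lie 58.8 kb apart. Fscn1 (chr5:142960343-142973185, plus strand) encodes fascin, which bundles actin in dendrites and in motile cells. The stretches just upstream of Ccl22 and Ccl17 are shown because Ccl22 and Ccl17 UMIs lay in few of the members, and because STAT proteins, the effectors of the kinases that AZD1480 inhibits, bind GAS motifs. They were read from RefSeq promoter windows of GRCm38.p6, which hold 250 bases before and 50 after a start and matched 3 of the 4 genes. The stretches end before the annotated starts, at chr8:94745434-94745589 and chr8:94810203-94810452. Capitals mark matches to the GAS motif written as TTCNNNGAA, or as the same letters with 1 more N, which reads the same on both strands.
Ccl22: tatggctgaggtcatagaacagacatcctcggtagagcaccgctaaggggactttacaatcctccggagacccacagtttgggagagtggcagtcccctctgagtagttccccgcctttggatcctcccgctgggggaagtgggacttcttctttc
Ccl17: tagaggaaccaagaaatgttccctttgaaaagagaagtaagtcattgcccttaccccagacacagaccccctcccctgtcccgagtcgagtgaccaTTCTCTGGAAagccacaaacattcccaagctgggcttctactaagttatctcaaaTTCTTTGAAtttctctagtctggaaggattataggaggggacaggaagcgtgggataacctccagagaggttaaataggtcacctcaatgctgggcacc
In the Ccl17 window 1 match to each spelling of the GAS motif began 99 and 154 bases before the start. The windows of Ccl22 and Fscn1 held no match to either spelling, and none of the 3 windows held the κB consensus. Of 32851 promoter windows, 8.30% held TTCNNNGAA, 6.95% held the spelling with 1 more N and 8.46% held the κB consensus, so such matches are common, and they describe letters rather than bound sites.

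The members fell apart by the transcripts of other cell types that they carried. Limits of 10 UMIs over 10 B cell genes (among them Cd79a, Cd79b, Ms4a1, Pax5, Ighm, Ighd, Iglc2, Fcmr and Blk) and of 25 UMIs over 10 MG genes (among them P2ry12, Tmem119, Cx3cr1, Sall1, Gpr34, Olfml3, Siglech, Sparc and Slc2a5) were set after these values were seen, where both sums had a gap. No member held between 6 and 12 B cell UMIs or between 13 and 38 MG UMIs. The 29 members with B cell transcripts held 12 to 161 B cell UMIs (median 56) and 0 to 11 MG UMIs. The 27 members with MG transcripts held 51 to 411 MG UMIs (median 138) and 0 to 6 B cell UMIs. The 8 remaining members held 1 to 13 MG UMIs and no B cell UMI, and none of the 8 held a UMI of the 10 T cell genes. T cell genes were also low in the other members, with at most 4 UMIs in a cell.

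**Figure D1:**
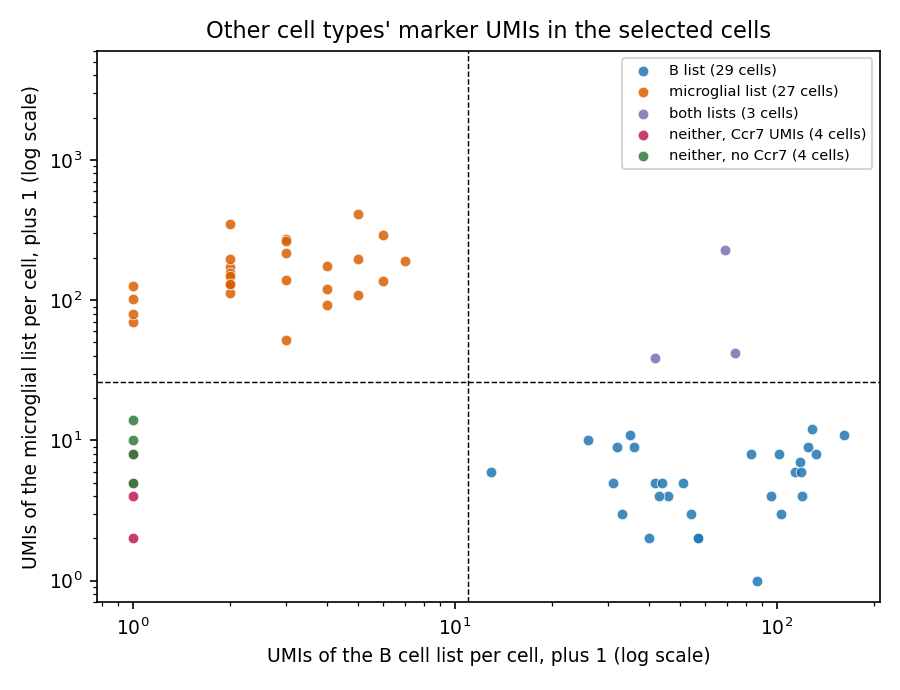
UMIs of the 10 B cell genes (horizontal axis) against UMIs of the 10 microglial genes (vertical axis), both on a log scale after adding 1, for each of the 67 members, with the colour giving the kind of transcripts carried. Dashed lines mark the limits of 10 and 25 UMIs. The members form separate groups at 12 to 161 B cell UMIs and at 51 to 411 microglial UMIs, with 3 cells high in both and 8 cells low in both.

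All 4 libraries held members with B cell transcripts, with 9, 6, 6 and 8 in PBS, monomer, PFF + VH and PFF + AZD1480. Members with MG transcripts numbered 15, 0, 5 and 7 in the same order, and those with few of either numbered 4, 0, 3 and 1. Monomer thus contributed 6 members with B cell transcripts, 1 with both and none of the other kinds. The median depth was 4277 UMIs in members with B cell transcripts and 10599 in those with MG transcripts. MHC Class II made up a median of 1.93% of the UMIs in the former and 1.47% in the latter, both close to the limit of 1%.

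Cells called with more than 1 hashtag are taken here as droplets that held cells of different samples. Such cells made up 4 of the 14 members in PFF + VH (28.6%) and 6 of the 18 in PFF + AZD1480 (33.3%), against 11.6% and 13.5% of all cells in these libraries. No hashtag was called in 35.2% and 6.40% of all cells and in no member, and among cells with a call the shares over all cells were 17.9% and 14.4%. Cells with B cell but few MG transcripts, members or not, had shares of 5.13% and 28.0% over 39 and 25 cells, and with those that also carried MG transcripts 27.0% and 31.6% over 63 and 38 cells. By kind, they were 4 of the 14 members with B cell transcripts in the hashtagged libraries, 5 of the 12 with MG transcripts, 1 of the 2 with both and 0 of the 4 with few of either. Doublets within 1 sample carry 1 hashtag and cannot be seen this way, and no doublet caller was run on PBS and monomer. The part of doublets in the MG and B cell transcripts of the members was not tested.

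The genes of the rule were spread unevenly over the kinds of members. Ccr7 had 237 UMIs in 37 members, of which 138 (58.2%) lay in members with B cell transcripts and 86 (36.3%) in 4 of the 8 members with few of either. Every member with B cell transcripts held Ccr7, at 2 to 15 UMIs (median 4), and none held Ccl22. Fscn1 had 208 UMIs in 39 members, of which 123 (59.1%) lay in members with MG transcripts, each of which held 1 to 18 (median 4). The 2 chemokines lay almost wholly elsewhere. Of 204 Ccl22 UMIs, 194 (95.1%) lay in 3 cells with few B cell and MG transcripts, and of 159 Ccl17 UMIs, 134 (84.3%) lay in 2 of them. By combination, 24 members held Ccr7 alone of the 4 genes, 24 held Fscn1 alone, 3 held Ccl17 alone, 9 held Ccr7 with Fscn1, and 7 held other combinations of 2 or more.

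**Figure D2:**
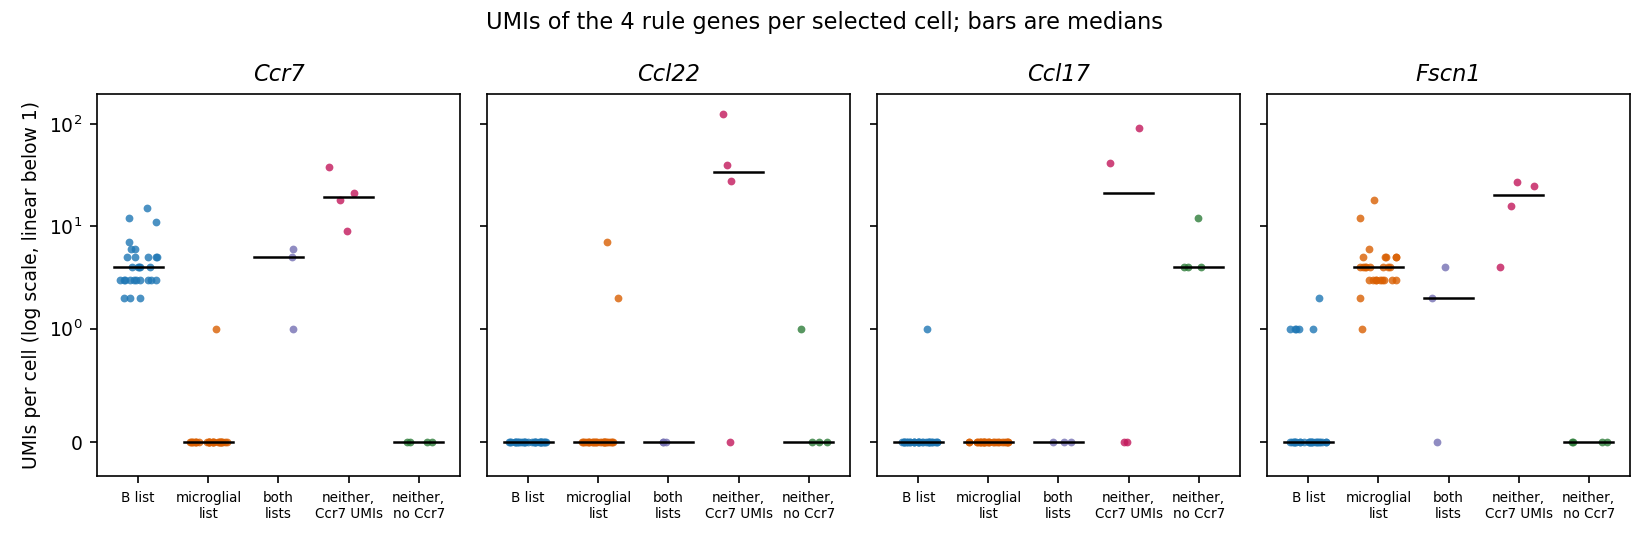
UMIs of Ccr7, Ccl22, Ccl17 and Fscn1, the 4 genes of the rule, in each of the 67 members by the kind of transcripts carried, on an axis that is a log scale above 1 and linear below it, with bars at medians. Ccr7 is held by all 29 members with B cell transcripts and Fscn1 by all 27 with microglial transcripts, while 194 of 204 Ccl22 UMIs lie in 3 of the 8 cells with few of either.

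The levels of the same genes outside the members gave the background for this division. In the order PBS, monomer, PFF + VH and PFF + AZD1480, Fscn1 had a UMI in 65.4%, 61.1%, 35.7% and 56.8% of MG, at median depths of 7163, 6789, 2355 and 6704 UMIs. In border macrophages, cells rich in MHC Class II with 3 or more UMIs of the macrophage genes of the rule, that share was 7.46% to 13.2%, but these cells were chosen to hold at most 1 UMI summed over the 4 genes, which limits it. Among cells with B cell but few MG transcripts outside the members, Ccr7 was detected in 17 of 33, 9 of 17, 11 of 33 and 6 of 17 cells in the same order (51.5%, 52.9%, 33.3% and 35.3%), and the rule had taken out those with most Ccr7. The share for Ccr7 in MG was 0.119% to 0.248%. Ccl22 had a UMI in at most 0.456% of MG, and Ccl17 in at most 0.00801%. Fscn1 in a cell with MG transcripts and Ccr7 in a cell with B cell transcripts were thus common in these libraries. The chemokines were detected in few cells of these kinds. Of 655 MHC Class II-rich cells in PFF + VH, 8 held 17 UMIs of Ccl22 in all, and no member there held any. Of the 8, 3 held 3 or more UMIs of Ccl22, and the limit on macrophage genes kept these out.

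Cells of the same kinds stood on both sides of the limits of the rule. At exactly 3 UMIs of the 4 genes stood 22 members, 11 with B cell and 11 with MG transcripts, and none with few of either. Just outside, at 2 UMIs, stood 36 cells, of which 11 carried B cell transcripts and 22 MG transcripts, cells with both being counted in each, and 5 carried few of either. Between 1% and 1.2% MHC Class II stood 7 members, and 11 cells stood between 0.8% and 1%. A total of 9905 cells had 3 or more UMIs of the 4 genes with MHC Class II below 1%, of which 9788 carried MG transcripts and 115 few of either. Among the cells below 1% were 45 with 3 or more UMIs summed over Ccr7, Ccl22 and Ccl17, and 12 of these had few B cell and MG transcripts. The limit on macrophage genes removed 12 cells, 7 of which had few B cell and MG transcripts.

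Among the 8 members with few B cell and MG transcripts, 4 held Ccr7 and 4 did not. These groups of 4 were formed after the values were seen and receive no test. PBS cell 4 held 9 UMIs of Ccr7, 126 of Ccl22, 92 of Ccl17 and 27 of Fscn1. PBS cell 21 held 18, 40, 42 and 25 UMIs of the same genes, and these were the only members in which all 4 were detected. PBS cell 27 held 38 UMIs of Ccr7 and 16 of Fscn1 but neither chemokine. PFF + AZD1480 cell 12 held 21 UMIs of Ccr7, 28 of Ccl22 and 4 of Fscn1 but no Ccl17. These 4 cells had 8885 to 13513 UMIs, so they were among the deeper cells. The other 4, PBS cell 9 and PFF + VH cells 3, 8 and 13, held no Ccr7 and no Fscn1, with 12 UMIs of Ccl17 in the first and 4 in each of the others.

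The 4 members with Ccr7 carried many genes of the maturation and migration programme, a list of 30 genes that mature dendritic cells raise. Between 17 and 22 of the 30 genes were detected in each (median 20.5). In 93 conventional dendritic cells, defined by MHC Class II and 2 or more UMIs of Flt3, Zbtb46, Xcr1, Clec9a, Cd209a and Cbfa2t3 with at most 1 UMI summed over the 4 genes and at most 1 summed over the macrophage genes, 0 to 15 were detected (median 5). The name follows this rule alone, and these comparison cells were mixed too. Of the 93, 9 held 10 or more B cell UMIs, 27 held 25 or more MG UMIs, 22 held 10 or more UMIs over 10 plasmacytoid dendritic cell genes, and Apoe was detected in 74. Of the 481 border macrophages, 192 held 25 or more MG UMIs and none held 10 B cell UMIs. On the plasmacytoid list, 114 of the macrophages and 43 of the 67 members held 10 or more UMIs. That list shares Siglech with the MG list, so it does not mark plasmacytoid cells alone. It also holds Ly6d, with 392 of its 414 UMIs in members that carried B cell transcripts. The part of such comparison cells in the comparisons was not tested. In members with B cell transcripts 1 to 10 programme genes were detected and in those with MG transcripts 5 to 10. The 30 genes made up 1.67% to 3.19% of the UMIs of the 4 cells, at most 0.789% in the conventional dendritic cells and at most 1.16% in 481 border macrophages. By this share the 4 cells stood above every cell of both comparison groups. Both groups were limited to 1 UMI of the 4 genes, and the 4 cells were grouped by Ccr7 after the values were seen. A lack of overlap, here and after thinning, was thus favoured by the choice of cells. PFF + AZD1480 cell 11, a member with MG transcripts, also stood above both groups at 1.53%, with 161 UMIs of Ccl5 among its 197 programme UMIs. The 4 cells were deeper, with a median of 12290 UMIs against 6269 in conventional dendritic cells and 6055 in border macrophages. After each cell was thinned to 2000 UMIs, 10 to 15 programme genes were detected in the 4 cells, 1 to 8 in 84 conventional dendritic cells and 0 to 7 in 429 border macrophages, and the groups still did not overlap. MHC Class II, which the rule used, made up 1.44% to 3.26% of the UMIs of the 4 cells (median 2.15%), against a median of 3.21% in conventional dendritic cells and 4.27% in border macrophages.

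**Figure D3:**
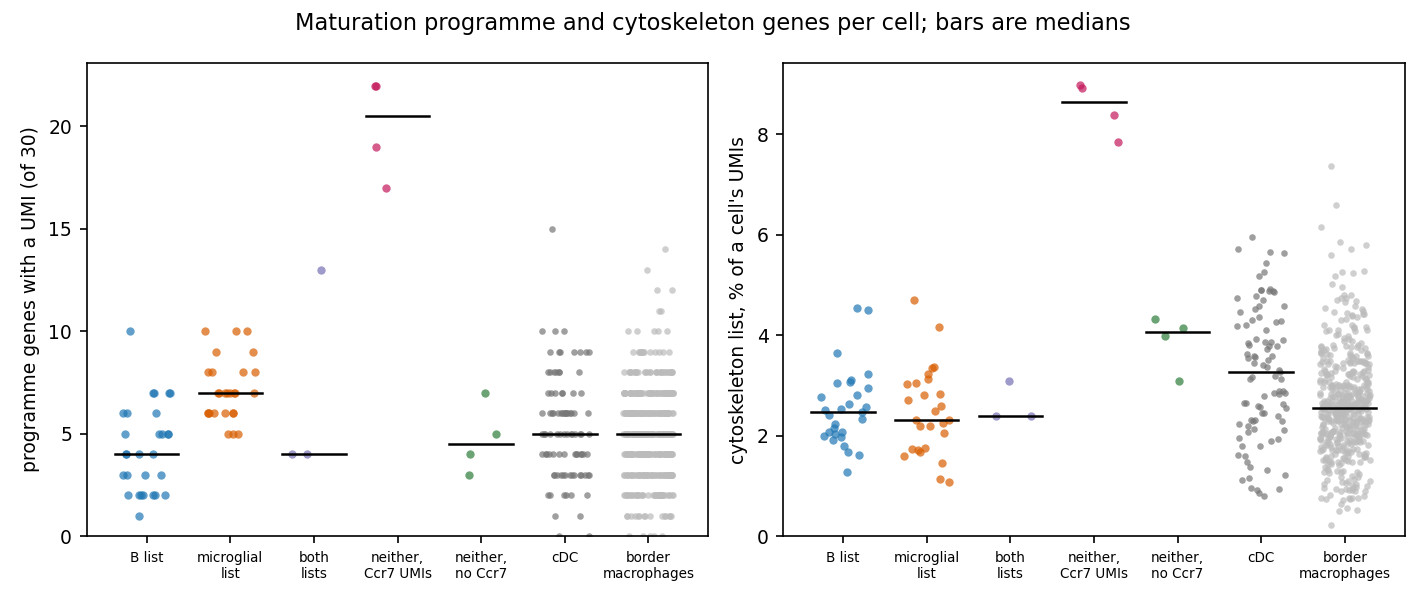
Number of the 30 programme genes detected per cell (left) and the share of the UMIs of a cell that the 22 cytoskeleton genes made up in percent (right), for the kinds of members, the 93 conventional dendritic cells and the 481 border macrophages, with a point per cell and bars at medians. The 4 members with Ccr7 and few B cell and microglial transcripts sit at 17 to 22 genes and at 7.83% to 8.98%, above all conventional dendritic cells and border macrophages. Both comparison groups were chosen to hold at most 1 UMI summed over the 4 genes of the rule.

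Programme genes differed in how many of the 4 cells held them. In the order of PBS cells 4, 21 and 27 and PFF + AZD1480 cell 12, Il4i1, an amino acid oxidase of mature dendritic cells, had 19, 5, 8 and 24 UMIs. Summed over the 4 cells, Il4i1 stood at 1192 CPM (counts scaled to the same total per library or set of cells, 1000000), against 21.9 in conventional dendritic cells. Tmem123, a surface protein also called porimin, had 36, 27, 41 and 32 UMIs, and stood at 2895 CPM against 84.1. Socs2, a feedback gene of JAK/STAT signalling, had 3, 5, 5 and 8 UMIs and none in the 93 conventional dendritic cells. Each of the 4 cells held all 3 genes. Ccl5, a chemokine for T cells and monocytes, had 64 and 76 UMIs in PBS cells 21 and 27 and none in the other two. Cacnb3, a subunit of calcium channels, had 4, 0, 2 and 10 UMIs. Apol7c had 22 UMIs in PBS cell 27 alone, and Lamp3 and Tnfrsf4 were not detected in any of the 4.

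NF-κB genes were detected in number in the same 4 cells, with a range that overlapped the conventional dendritic cells. Each held 13 to 16 of the 19 listed genes, against 0 to 14 in conventional dendritic cells, and after thinning to 2000 UMIs 6 to 8 genes against 0 to 12. Relb, the noncanonical subunit that mature dendritic cells depend on, had 17, 19, 3 and 10 UMIs and stood at 1043 CPM against 60.6 in conventional dendritic cells. Rel, a canonical subunit, had 18 to 33 UMIs per cell and stood at 1937 CPM against 427.4. Traf1, an adaptor of tumour necrosis factor receptors, had 4, 9, 7 and 8 UMIs. Every one of the 4 cells held these 3 genes.

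Costimulation and checkpoint genes were present but uneven. Cd83, a maturation marker that stabilizes MHC Class II, had 21, 13, 24 and 56 UMIs in the 4 cells. Cd86, a ligand of CD28, had 2, 28, 1 and 4 UMIs, and Cd40, the receptor for the T cell ligand CD40L, had 1, 7, 2 and 1. Aldh1a2, which makes retinoic acid, had 32 UMIs over the 4 cells, all of its UMIs among the 67 members, and at least 1 in each. Cd274, which encodes PD-L1, had 4, 4, 1 and 0 UMIs, and Pdcd1lg2 and Ido1 were not detected. The costimulation list made up 0.304% to 0.820% of UMIs in the 4 cells, within the range of 0% to 1.00% in conventional dendritic cells.

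Cytoskeleton genes were high in the 4 cells. The 22 listed genes made up 7.83% to 8.98% of UMIs, against 0.795% to 5.95% in conventional dendritic cells and 0.215% to 7.37% in border macrophages. Actb stood at 19945 CPM in the 4 cells against 6610 in conventional dendritic cells, and Tmsb4x, which binds actin monomers, at 46574 against 17484. Uptake genes were low in the 4 cells. The 19 genes of endocytosis and pattern recognition made up 0.0155% to 0.135% of UMIs. In conventional dendritic cells they made up 0.0229% to 4.18% (median 0.609%), so the ranges overlapped. Cd209a, a gene used to define those cells, is among the 19, which favoured higher shares there. Lyz2 was not detected in any of the 4 cells and Apoe had 1 UMI.

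Among genes of the conventional lineages, shared ones were detected in the 4 cells and several subset markers were not. Zbtb46, the transcription factor of conventional dendritic cells, had 4, 2, 1 and 1 UMIs, and Flt3, their growth factor receptor, had 2, 0, 0 and 3. Cd209a, Mgl2 and Clec10a, which mark type 2 cells, and Xcr1 and Clec9a, which mark type 1 cells, were at 0 in all 4. Sirpa, a receptor found on type 2 cells and macrophages, had 2, 3, 0 and 6 UMIs, at 234 CPM against 261 in conventional dendritic cells, and the list of type 2 genes held 0 to 16 UMIs per cell. A count of 0 in 1 cell allows up to 3 UMIs, so low levels were not detectable. The subset markers differed in the members with Ccl17 but no Ccr7. Cd209a had 5, 12, 6 and 8 UMIs in PBS cell 9 and PFF + VH cells 3, 8 and 13, and Mgl2 had 18, 7, 3 and 10. The list of type 2 genes made up 0.530% to 0.797% of their UMIs, 3 to 7 of the 30 programme genes were detected, and MHC Class II made up 6.53% to 9.08%. PFF + VH cells 3, 8 and 13 all carried hashtag 4.

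All 27 members with MG transcripts carried some programme genes, and 2 of them are given here. PFF + AZD1480 cell 17 held 7 UMIs of Ccl22, 12 of Fscn1, 19 of Il4i1 and 16 of Cd274 beside 79 MG UMIs. PFF + AZD1480 cell 11 held 161 UMIs of Ccl5 and 147 MG UMIs, with 197 UMIs over the programme list, and it carried more than 1 hashtag. These 2 cells were chosen after their values were seen.

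To compare all members with the other MHC Class II-rich cells, counts were summed per library and an edgeR quasi-likelihood test with the library as a block was run on the sums. The genes tested exclude those of the rules, but come from the same cells that the rule chose, so the calls describe the mixture of kinds and are not independent of the choice. Against the 93 conventional dendritic cells, of which PBS, monomer, PFF + VH and PFF + AZD1480 held 19, 12, 38 and 24, 3557 genes were tested. At an adjusted p under 0.05, 36 genes (1.01%) were higher and 48 genes (1.35%) were lower in members, and the median log2 fold change over all genes tested was −0.02. The number of calls rested on the PFF + AZD1480 library. Without it edgeR called 0 of 2687 genes (286 at an unadjusted p under 0.05), and without PBS 39 of 2696.

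B cell genes led the higher genes. All 10 B cell genes were tested and 7 rose (among them Fcmr, Cd79a, Cd79b, Ighd, Ighm and Iglc2), with a median log2 fold change of 2.64 over the list. Cd79a, a subunit of the B cell receptor, stood at 433, 2975, 680 and 1078 CPM in members of PBS, monomer, PFF + VH and PFF + AZD1480 and at 185, 167, 0 and 176 CPM in conventional dendritic cells. All 4 libraries of members lay above all 4 of the comparison cells, with a log2 fold change of 3.13 ± 0.62 (SE, edgeR adjusted p = 0.0239). The 10 genes with the largest rise in every library included Cd55, Iglc2, Fcer2a, Kcnq5, Vpreb3, Chchd10, Fcmr, Ebf1 and Cd79a. Cd55, a complement regulator, rose by the most, with a log2 fold change of 4.68 ± 0.70 (adjusted p = 0.00552), and 56 of its 62 UMIs lay in members with B cell transcripts. For each of these named genes but Kcnq5, the members with few B cell and MG transcripts held no UMI.

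Of 9 MG genes tested, 2 rose, with a median log2 fold change of 1.22. Tmem119, an MG surface protein, stood at 461, 85.8, 320 and 238 CPM in members and at 39.6, 49.2, 147 and 20.1 in conventional dendritic cells (log2 fold change 2.29 ± 0.49, adjusted p = 0.0353). Sparc rose by a log2 fold change of 1.76 ± 0.39 (adjusted p = 0.0386). When the members with MG transcripts were left out, Sparc turned to −2.89, and when those with B cell transcripts were left out, which also removed monomer from the fit, Cd79a turned to −7.41, Ebf1 to −6.87, Cd79b to −2.13 and Ighm to −0.75. The values of Cd79a and Ebf1 depend on the prior count, since the remaining members held no UMI of either. Sparc, Cd79a, Cd79b and Ighm belong to the lists that chose which members to leave out, so drops in their values were built into the choice. The comparison cells were not filtered in the same way.

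The maturation and migration programme had 13 of 30 genes tested, of which 3 rose and none fell, with a median log2 fold change of 0.35. Il4i1 stood at 146, 57.2, 13.3 and 339 CPM in members against 33.0, 0, 21.0 and 25.2, a log2 fold change of 2.64 ± 0.58 (adjusted p = 0.0382). In PFF + VH the level was lower in members than in conventional dendritic cells. Tmem123 rose by a log2 fold change of 1.77 ± 0.39 (adjusted p = 0.0382) and was higher in all 4 libraries. Ccl5 rose by 5.21 ± 0.79 on the log2 scale (adjusted p = 0.00645), but stood at 574, 0, 13.3 and 1059 CPM in members, and 161 of its 312 UMIs (51.6%) came from PFF + AZD1480 cell 11. The 4 cells with Ccr7 and few B cell and MG transcripts held 56 of the 93 UMIs of Il4i1 and 136 of the 195 of Tmem123. These 4 cells lie in PBS and PFF + AZD1480, and the fit was not repeated without them.

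Relb rose without overlap between members and conventional dendritic cells. It stood at 267, 114, 160 and 201 CPM in members against 52.9, 59.0, 28.0 and 90.7 in conventional dendritic cells, a log2 fold change of 1.69 ± 0.38 (adjusted p = 0.0386). The adjusted p was 0.0387 without the members that carried B cell transcripts, over 3 libraries, and 0.0118 without those that carried MG transcripts. It was 0.0581 in DESeq2, and 0.186, 0.110 and 0.151 when PBS, PFF + VH or PFF + AZD1480 was left out. Of its 114 UMIs, 49 lay in the 4 cells with Ccr7, 39 in members with MG transcripts and 21 in those with B cell transcripts. Among the 15 NF-κB genes tested, Relb rose and Map3k14, the kinase NIK, fell by 2.06 on the log2 scale.

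**Figure D4:**
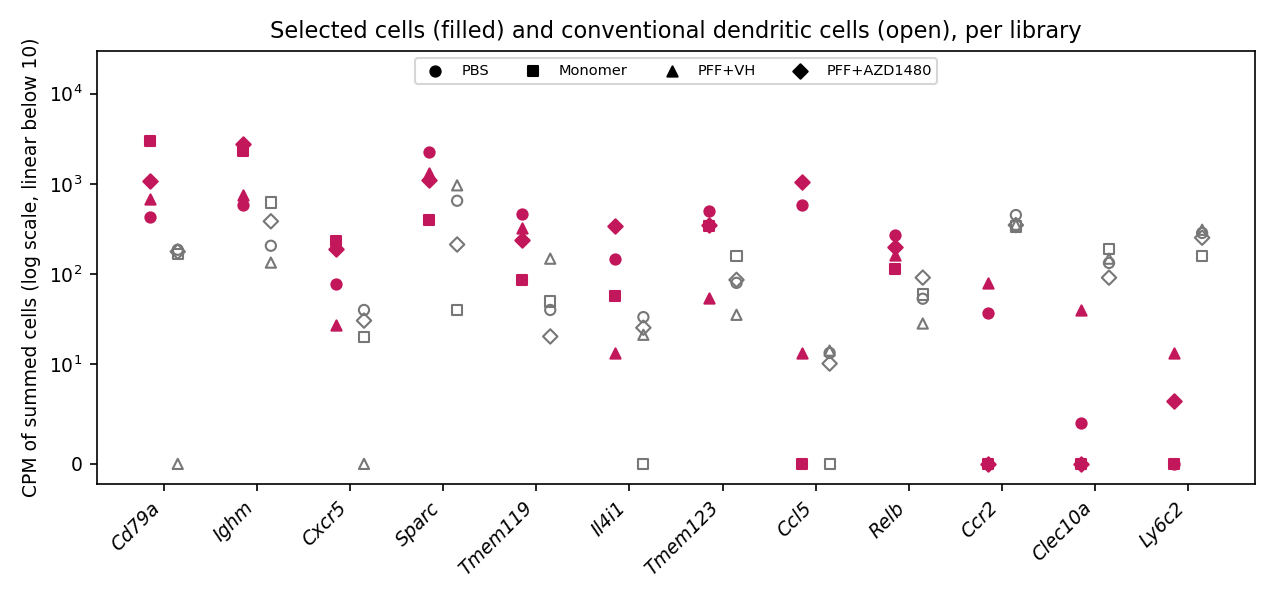
CPM of selected genes in members and in conventional dendritic cells, on an axis that is a log scale above 10 and linear below it, with filled points for members, open points for conventional dendritic cells and a marker shape for each of the 4 libraries. For Cd79a and Relb every point of members lies above every point of conventional dendritic cells, while for Il4i1, Ccl5 and Tmem119 the points overlap. Within each library Tmem119 is higher in members.

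Genes lower in members than in conventional dendritic cells included receptors and markers of monocytes and of conventional lineages. The 10 with the largest fall in every library were Iqgap2, Ccser1, Ly6c2, Srgap3, Anxa1, Itgae, Klrb1b, Ccr1, P2ry14 and Olfm1. Iqgap2 had no UMI in members and 136 in conventional dendritic cells, at least 39.4-fold lower against a floor of 3 counts over the members, and Ccser1 was at least 20.3-fold lower by the same measure. Ccr2, the receptor that brings monocytes into tissue, stood at 36.4, 0, 80.0 and 0 CPM in members and at 449, 334, 350 and 347 in conventional dendritic cells (log2 fold change −3.78 ± 0.59, adjusted p = 0.00586). Of 3 monocyte genes tested, Ccr2 and Ly6c2 fell. Of 9 type 2 genes tested, Tnip3 and Clec10a fell, and of 4 type 1 genes, Naaa and Itgae fell, with no gene of either list higher. Cd209a and the other genes that define the comparison cells were given no test. Since the comparison cells were chosen for such lineage markers, lower levels of related genes in members were favoured by that choice.

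The remaining lists gave few or no calls. Chemokine and trafficking receptors had 10 genes tested, of which Cxcr4 and Cxcr5 rose and Ccr1 and Ccr2 fell, and 51 of the 59 UMIs of Cxcr5, which guides B cells into follicles, lay in members with B cell transcripts. Of the 67 UMIs of Cxcr4, 48 lay in the same kind of member, and without those that carried B cell transcripts its log2 fold change turned to −0.11. Of 9 cytokines, Cxcl10 rose, and 74 of its 160 UMIs came from PBS cell 23. Wdfy4, used in cross-presentation, fell among 13 MHC Class I genes, and Clec12a fell among 13 genes of endocytosis. None of 8 costimulation genes, 5 checkpoint genes, 21 JAK/STAT genes, 10 interferon-stimulated genes, 20 cytoskeleton genes, 12 stress genes or 10 further genes of the MHC Class II pathway passed the edgeR test. The median log2 fold changes of these 7 lists lay between −0.33 and 0.64. The high cytoskeleton share of the 4 cells with Ccr7 was thus not seen over all members.

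Against the 481 border macrophages, of which the libraries held 115, 134, 106 and 126 in the same order, 6149 genes were tested in the same way. In members 197 genes (3.20%) were higher and 246 genes (4.00%) were lower, with a median log2 fold change of −0.04. Without the PFF + AZD1480 library 209 of 5776 genes were called. Without the members that carried B cell transcripts 179 of 5705 were called, in a fit of 3 libraries, since monomer then had 0 members. All 10 B cell genes rose, with a median log2 fold change of 8.99 that depends on the prior count, since the macrophages held no UMI of several of them. Cd79a was at least 824-fold higher and Iglc2 at least 585-fold higher against a floor of 3 counts over the macrophages. The other genes among the 10 with the largest rise in every library were Ly6d, Ebf1, Fcmr, Iglc3, Ms4a1, Pax5, Mzb1 and Scd1.

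Of 14 programme genes tested against border macrophages, 5 rose and none fell, with a median log2 fold change of 0.82. Il4i1 rose by 4.90 ± 0.50 on the log2 scale (adjusted p = 3.02e-05) and stood at 1.08 to 7.39 CPM in macrophages, below all 4 libraries of members. Rabgap1l rose by 1.26 ± 0.32 (adjusted p = 0.0279), also without overlap. Of its 121 UMIs in members, 60 lay in those with B cell transcripts and 36 in the 4 cells with Ccr7. Tmem123, Socs2 and Ccl5 rose with overlapping libraries. Of the 24 UMIs of Socs2 in members, 21 lay in the 4 cells with Ccr7, and none in monomer or PFF + VH. Cd274 rose by 3.74 ± 0.44 (adjusted p = 8.41e-05) and stood at 114 to 232 CPM in members and 4.93 to 18.2 in macrophages. Its 82 UMIs were spread over 36 in members with B cell transcripts, 36 in those with MG transcripts and 9 in the 4 cells with Ccr7.

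Antigen processing, movement and signalling genes were divided. Of 11 further genes of the MHC Class II pathway, Ifi30, a thiol reductase that unfolds antigen, rose by 1.59 ± 0.30 (adjusted p = 0.00432), as did H2-Oa and H2-Ob, which hold back peptide loading in B cells, while H2-DMb1, which promotes it, fell by 1.72. Among 12 receptors, those that rose included Cxcr4, S1pr1 and Cxcr5, and Ccr1 and Ccr2 fell. Of 26 JAK/STAT genes, Stat4, Socs2 and the shared receptor chain Il2rg rose and none fell, with a median of −0.21. Members with B cell transcripts held 32 of the 51 UMIs of Stat4 and 48 of the 73 of Il2rg. The 4 cells with Ccr7 held 10 and 9. Of 21 cytoskeleton genes, Tmsb10, Myo1g and Ezr rose, and 49 of the 74 UMIs of Myo1g lay in the 4 cells with Ccr7. Without the members that carried B cell transcripts Ezr turned to −0.89. Of 16 NF-κB genes, Relb rose by 1.13 ± 0.32 (adjusted p = 0.0460), Traf3 rose and Nfkbiz fell. The rise of Relb fell short of the threshold, with log2 fold changes of 0.73 to 1.42, in DESeq2 (adjusted p = 0.0994), with no filter on low counts (0.141), after thinning (0.365), and without PBS (0.299), PFF + VH (0.151), PFF + AZD1480 (0.193) or the members that carried B cell transcripts (0.0530).

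Macrophage and handling genes were lower in members. Of 7 further border macrophage genes, 6 fell (Apoe, Maf, F13a1, Stab1, Ms4a7 and Ms4a6c), with a median log2 fold change of −2.72. Members were chosen to hold at most 1 UMI of the macrophage genes of the rule, and the comparison cells 3 or more. Lower levels of related genes were thus favoured by the definitions. Of 17 genes of endocytosis and pattern recognition, 6 fell, among them the endotoxin receptor gene Cd14, by 2.36 on the log2 scale (adjusted p = 0.00991), and Lyz2. Cxcl2, which draws neutrophils, and Ccl2, which draws monocytes, fell by 4.66 and 3.68, while Il1a rose among the same 11 cytokines, with 248 of its 259 UMIs in members with MG transcripts and a log2 fold change of −0.97 without these. Of 22 interferon-stimulated genes, Oasl2, Bst2, Ifi27l2a and Rtp4 fell and Gbp2 rose. Of 12 stress genes, 7 fell, with a median of −1.33, and Fos stood at 2030, 658, 2960 and 896 CPM in members against 3167, 3983, 4070 and 5111 in macrophages. Such genes respond to tissue dissociation, and the part of handling in these differences was not tested. S100a8, a neutrophil gene, had no UMI in members and 547 in macrophages, and was at least 32.0-fold lower against the same floor. Its UMIs lay in 26 of the 481 macrophages, at 137, 2.16, 9.10 and 537 CPM in PBS, monomer, PFF + VH and PFF + AZD1480, and the 8 neutrophil genes had a median of 0 and a maximum of 1507 UMIs per macrophage. Iqgap2, Clec4a1, Bmp2, Mmp13, Ccn1, Ccl8, Ptgds, Pparg and Fam110b, the other genes with the largest fall, also had no UMI in members and were at least 6.03-fold to 18.2-fold lower.

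The study compared conditions, and here the number of members was compared among cells with at least 2000 UMIs, each thinned to 2000, since the rule counts UMIs. Shallower cells were left out, and these numbered 14819 of 34436 in PFF + VH against 1673, 2098 and 1551 in PBS, monomer and PFF + AZD1480. With 1 library per condition there was no test between libraries. The rule was applied anew to the thinned cells, so the cells it then selected need not be among the members above. It selected 7 of 12944 cells in PBS, or 0.0541% (95% exact binomial interval 0.0218% to 0.111%). Monomer had 2 of 12933, or 0.0155% (0.00187% to 0.0559%), PFF + VH had 8 of 19617, or 0.0408% (0.0176% to 0.0803%), and PFF + AZD1480 had 6 of 11470, or 0.0523% (0.0192% to 0.114%). The 4 intervals overlapped. They cover counting error only. Without thinning the shares were 0.192%, 0.0466%, 0.0407% and 0.138%, and PBS and PFF + AZD1480 then stood above PFF + VH, while monomer, with a median of 6688 UMIs against 2306, stood close to it. Members with few B cell and MG transcripts made up 4 of 14617, 0 of 15031, 3 of 34436 and 1 of 13021 cells without thinning. The count of 0 in monomer allows a share of up to 0.0200% by a floor of 3 counts, and the upper bound of its exact binomial interval was 0.0245%.

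The effect of AZD1480 after PFF was tested over hashtags. Thinned shares of members among cells with 1 hashtag and at least 2000 UMIs were 0.0363%, 0.0671%, 0.0331% and 0.0979% in the 4 hashtags of PFF + VH, from 1, 2, 1 and 4 members. In PFF + AZD1480 the 5 shares were 0%, 0%, 0.155%, 0% and 0.0912%, from 0, 0, 2, 0 and 1 members. The groups overlapped. The mean was 0.0586% ± 0.0303 (SD, n = 4) with VH and 0.0493% ± 0.0712 (SD, n = 5) with AZD1480, a difference of −0.0093 percentage points (two-sided exact permutation p = 0.794, adjusted p = 0.984 over 2 tests). Among MHC Class II-rich cells the means were 3.18% ± 2.31 (n = 4) and 3.13% ± 4.88 (n = 5), a difference of −0.0514 percentage points (exact permutation p = 0.984, adjusted p = 0.984). The smallest p that 4 against 5 hashtags allow is 0.0159. Without thinning the difference over all cells was 0.0816 percentage points, in the other direction (exact permutation p = 0.159). With 0 to 4 members per hashtag no difference was detected at this depth, and the size of difference that could have been detected was not estimated.

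**Figure D5:**
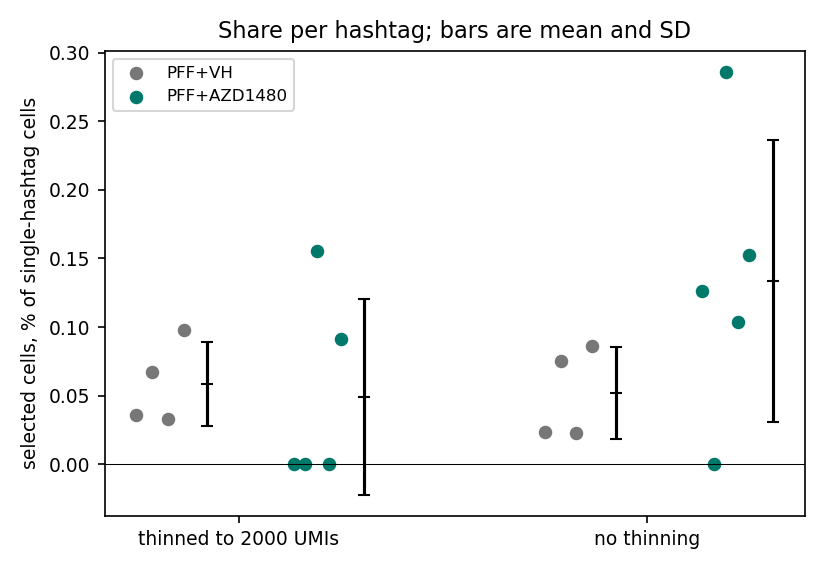
Members as a percent of all single-hashtag cells after thinning to 2000 UMIs (left) and without thinning (right), with a point per hashtag and a bar for the mean ± SD of 4 hashtags (PFF + VH) or 5 (PFF + AZD1480). After thinning, PFF + VH lies between 0.0331% and 0.0979% and PFF + AZD1480 between 0% and 0.155%.

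Genes of members could not be tested between PFF + AZD1480 and PFF + VH at the planned minimum of 5 members per hashtag, since only 1 hashtag with VH and 0 with AZD1480 reached it. With a minimum of 3, 2 hashtags of PFF + VH and 3 of PFF + AZD1480 entered, and edgeR called 0 of 376 genes (0.00%). At an unadjusted p under 0.05 stood 25 of the 376. By level, Ccr7 had 102, 26, 25 and 84 UMIs in members of PBS, monomer, PFF + VH and PFF + AZD1480, and Fscn1 had 127, 3, 20 and 58. Ccl22 had 169, 0, 0 and 35 UMIs and Ccl17 had 146, 0, 12 and 1. Of the 169 and 146 UMIs of the chemokines in PBS, PBS cells 4 and 21 held 166 and 134, so the chemokine levels in PBS rest on 2 cells. The same cells held 27 of the 102 UMIs of Ccr7 and 52 of the 127 of Fscn1.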

How the data were processed

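Counts of UMIs per gene and cell were deposited as 1 matrix per expression library, which the authors made from 10x 3′ libraries mapped to mm10 per the submitters' processing notes, with Cell Ranger 7.0.1 named in the file headers. The 2 hashtag samples were read from the same matrices. Cells with 500 to 15000 UMIs, 250 to 5000 genes and at most 10% mitochondrial UMIs were kept. The members and gene lists were chosen with earlier results of these data known. Each cell was assigned to hashtags by HTODemux (Seurat 5.3.0, R 4.3.3) at a positive quantile of 0.99. Members without a single hashtag entered library values but no hashtag test, and no other doublet caller was run. Shares were computed after thinning each cell to 2000 UMIs and leaving out shallower cells, which lowered the number of cells most in PFF + VH, and hashtag means were compared with exact permutation tests. Counts summed per library and cell set (at least 5 cells) were tested with edgeR 4.0.16 (quasi-likelihood, TMM, filterByExpr, library as block, Benjamini-Hochberg threshold 0.05), and the script was tested on simulated data. Both cell sets of a library come from the same pooled samples, which pairs them. p-values over hashtags measure the spread between samples that each pool 3 to 5 midbrains. Those over libraries measure how far the difference between the cell sets varied over the 4 libraries, 1 per condition and each of several samples. Named genes are those of the rule, listed genes past the threshold, and the 10 with the largest change in each direction among genes past it that moved the same way in every library. DESeq2 1.42.0, other filters and other rules were alternatives. Python 3.11.15 was used for the rest. MG in the background shares are cells with 5 or more UMIs over the 10 MG genes and less than 1% MHC Class II. Some genes of the lists are not reported here by name.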

Additional observations from a re-analysis of the deposited data

Results flagged for a closer look

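The upper limits of 15000 UMIs and 5000 genes left out cells that met the other parts of the rule. In PFF + AZD1480, 2 such cells carried few B cell and MG transcripts, against 0 in each of the other 3 libraries. They were noted because they enter no comparison made under these limits. They held 20530 and 24268 UMIs, with 2 UMIs of Ccr7, 13 of Ccl22, 15 of Ccl17 and 3 of Fscn1 between them. The 30 programme genes made up 0.338% and 0.609% of their UMIs. Above the limits, 5, 3, 2 and 6 cells of PBS, monomer, PFF + VH and PFF + AZD1480 met the other parts of the rule in all. No hashtag stood far from the others in the 4 groups of shares looked at, in which chance gives about 1 in 20.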

How the results depend on the processing

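The number of genes tested differed between settings, so counts of calls are given with it. Against conventional dendritic cells, 84 of 3557 genes were called. It was 289 of 14283 with no filter on low counts, 49 of 2568 without the block on library and 51 of 790 after thinning to 2000 UMIs. When the rule asked for 2 or more UMIs of Ccr7, Ccl22 and Ccl17 without Fscn1, it was 186 of 2494. Against border macrophages, 443 of 6149 genes were called, against 730 of 16382 with no filter and 1067 of 5519 under the same rule without Fscn1. The fit without the replicate block gave 467 of 5054. Leaving out 1 library each gave 0 to 77 calls and 209 to 442 calls. In alternatives chosen after the data were seen, leaving out the members with MG transcripts gave 269 calls of 2202 genes and 1123 of 5265. Leaving out those with B cell transcripts, which also removed monomer from the fit, gave 179 of 5705 against border macrophages. DESeq2 and RLE factors kept both counts within 1.5 times.

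Of 1385 gene values under alternatives, for 128 results, 1167 kept direction and side of the threshold, 208 lost the call and 10 reversed. Without members that carried B cell transcripts, log2 fold changes against conventional dendritic cells became −6.87 for Ebf1, −7.41 for Cd79a, −0.11 for Cxcr4, −2.13 for Cd79b and −0.75 for Ighm, and against border macrophages −0.30 for Ighm and −0.89 for Ezr. The first 2 depend on the prior count, since members without B cell transcripts held no UMI of either. Without members that carried MG transcripts, Sparc became −2.89 and −2.52 in the 2 comparisons and Il1a −0.97 against border macrophages. These alternatives left out the members that held most UMIs of the genes concerned and did not filter the comparison cells in the same way.

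Without thinning, the share of members was 0.192% in PBS and 0.138% in PFF + AZD1480, and it was 0% in PFF + VH after thinning to 1000 UMIs. Under the rule of 2 or more UMIs without Fscn1 it was 0.1004% in PBS and 0.0309% in monomer. With fewer MG than rule UMIs required it was 0% in monomer and 0.0102% in PFF + VH. For members with few B cell and MG UMIs it was 0% in monomer, and 0.00871% and 0.00768% in the libraries of PFF + VH and PFF + AZD1480, and with 2 or more rule genes 0.00290% in PFF + VH. With no upper limits it was 0.214%, 0.0640% and 0.175% in PBS, monomer and PFF + AZD1480.

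The difference between AZD1480 and VH over hashtags changed sign between settings, and exact permutation p values were 0.143 or more. Under the rule without Fscn1 it stayed negative, at −0.0190 percentage points over all cells and −0.649 among MHC Class II-rich cells. With hashtag values centred within cells it was −0.0107 over all cells. Over all cells it was 0.0816 percentage points without thinning, 0.0455 at 1000 UMIs, 0.0121 when 1 hashtag had to hold over 60% of hashtag UMIs, 0.00102 with fewer MG than rule UMIs, 0.00133 for members with few B cell and MG UMIs, and −0.0358 to 0.00379 when 1 hashtag was left out. Among MHC Class II-rich cells it was 5.06, 2.59, 0.630 and 0.363 in the first 4 of these settings, 0.0252 with hashtag values centred within cells, and −2.05 to 1.07 when 1 hashtag was left out. The cause of these changes was not tested. The rule with fewer MG than rule UMIs could not be fitted for genes, because PBS alone kept at least 5 cells, and the alternatives for genes between hashtags were not run, because the planned test could not be made. With 0 to 5 members per hashtag, depth and cell number limit every comparison of conditions.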
